A study of Neurospora crassa with 10 samples.

Results

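The 9 light-induced transcription factor genes of *Neurospora crassa* described here are 9 of the 9728 genes in the tables. They were chosen by locus because their mRNA rose in light, so that the rise itself is a description and not a finding. They are *csp-1* (NCU02713), *csp-2* (NCU06095), *bek-1* (NCU00097), NCU00275, *asl-1* (NCU01345), *rca-1* (NCU01312), *rpn-4* (NCU01640), NCU01734, and NCU01856. RNA-seq was done on wild-type mycelium of strain FGSC2489 grown in shaken liquid cultures for 24 hr in the dark at 25°. Cultures were then harvested without light or after 15, 60, 120, or 240 min of white light of 1200 lux. Each of the 5 time points had 2 replicates, which makes 10 samples. All cultures carried the same genotype, and the dark cultures are the controls for every light time point.

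Light is sensed in *Neurospora* by the white collar complex (WCC), a pair of GATA-type zinc finger proteins of which WC-1 binds a flavin. The complex activates early genes within minutes, several of which encode transcription factors that act on later genes. The response then declines under constant light, a process called photoadaptation that depends on the small photoreceptor VIVID. Conidiation, carotenoid synthesis, and the circadian clock all receive this input.

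The products of the 9 genes fall into several families, and some of them share a family. CSP-1 is a C2H2 zinc finger repressor, and CSP-2 is a relative of the Grainyhead factors of animals. Mutants of both genes fail to release their conidia. ASL-1, also known as ATF-1, is a bZIP protein of the ATF/CREB group with a role in stress responses. RCA-1 is a Myb-type protein related to FlbD of *Aspergillus nidulans*, a regulator of conidiation in that fungus. RPN-4 is named as a C2H2 transcription factor and carries the name of the activator of proteasome genes in *Saccharomyces cerevisiae*. NCU01856 is annotated as a Hac1-type activator, and Hac1 of *S. cerevisiae* drives the unfolded protein response. The products of *bek-1*, NCU00275, and NCU01734 were hypothetical proteins in the gene names used here. Of the 9 loci, *csp-1*, *csp-2*, *bek-1*, and NCU00275 are 4 of the 27 loci in the study's list of WCC target genes, a list that came from binding of the complex and not from these samples.

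Levels are in FPKM, fragments scaled to the length of the transcript and to the number of mapped reads. In the dark the 9 genes covered a wide range of levels. NCU01856 had the highest mean level with 73.6 ± 15.9 FPKM (SD, n = 2), above 91.3% of all genes, followed by *csp-1* with 40.9 ± 7.77 FPKM and *rpn-4* with 30.2 ± 19.4 FPKM. The spread of *rpn-4* was large enough to overlap with *csp-1* and with *asl-1* (13.8 ± 2.74 FPKM) and *csp-2* (13.5 ± 5.83 FPKM), and these last 2 did not differ beyond their spread. *rca-1* stood at 9.61 ± 0.557 FPKM. NCU00275 at 2.04 ± 0.834 FPKM and NCU01734 at 1.76 ± 0.287 FPKM overlapped, and *bek-1* was lowest with 0.437 ± 0.134 FPKM, above 19.7% of all genes. All 9 genes passed the filter of a mean above 1 FPKM at 1 or more time points, *bek-1* through its means at 15 min (2.32 FPKM) and 60 min (1.03 FPKM), the former being the time at which it is high.

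At 15 min the ratio of mean FPKM to the dark ran from 2.03 for NCU01856 to 8.80 for *csp-1*, with a median of 3.36. Each of the 9 genes was above the dark sample of its own replicate in both replicates, a measure not taken over all genes. Both light samples lay above both dark samples for 8 of the 9, the exception being *rpn-4*. The same held for 16.3% of the 7688 genes tested, and since the genes were selected on this rise nothing is read from the difference. The ratio at 15 min ran from 2.06 to 8.39 in replicate 1 and from 1.93 to 9.32 in replicate 2, and single genes differed between them, as NCU00275 with 3.91 and 5.46. As the samples are bulk mycelium, fewer cells of a type and less RNA per cell cannot be told apart for any of these levels.

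**Figure D1:**
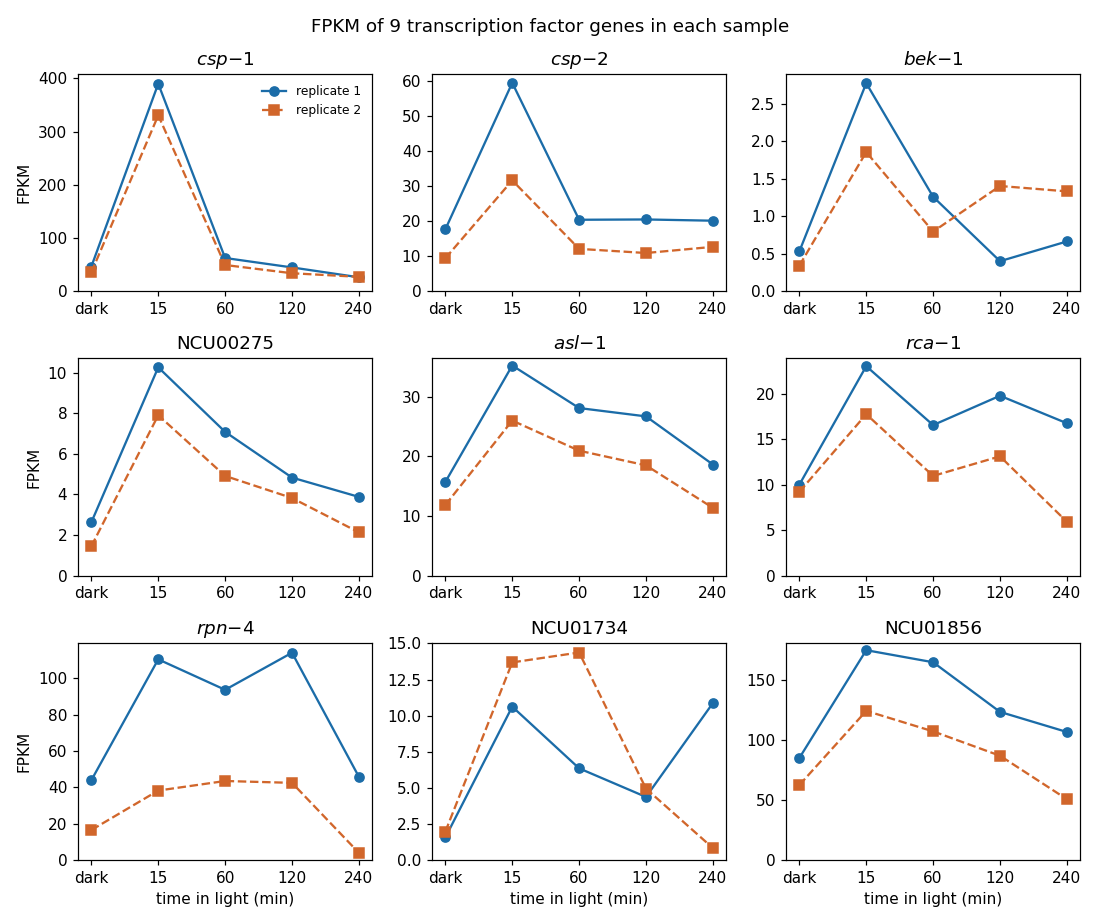
FPKM (vertical axes, linear, from 0) of the 9 genes against the time in light in min, with 1 panel per gene, circles for replicate 1, and squares for replicate 2. *csp-1* rises from 46.4 and 35.4 FPKM to 390 and 330 FPKM at 15 min and is back at 62.4 and 49.3 FPKM at 60 min, while *rpn-4* stays up to 120 min.

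*csp-1* and *csp-2* had a short pulse. The level of *csp-1* was 46.4 and 35.4 FPKM in the dark (replicates 1 and 2, in this order throughout), 390 and 330 FPKM at 15 min, 62.4 and 49.3 FPKM at 60 min, 44.7 and 33.8 FPKM at 120 min, and 26.2 and 27.0 FPKM at 240 min. Both values at 15 min stood far above the other 8, and both values at 240 min lay below both dark values, being 0.564 and 0.762 times the dark value of the replicate. The log2 fold change against the dark, on the scale of FPKM + 1 which holds for every fold change below, was 3.11 (SE 0.33) after 15 min, 0.44 after 60 min, −0.06 after 120 min, and −0.59 in the samples of 240 min.

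For *csp-2* the levels were 17.6 and 9.39 FPKM in the dark, 59.4 and 31.6 FPKM at 15 min, 20.4 and 12.1 FPKM at 60 min, 20.5 and 10.9 FPKM at 120 min, and 20.1 and 12.6 FPKM at 240 min. Replicate 1 was higher at each time point, yet the ratio at 15 min to the dark of the same replicate was 3.37 and 3.36. From 60 min on, the values in each replicate stayed within a narrow band a little above its dark value, with ratios of means of 1.20, 1.16, and 1.21. The log2 fold change at 15 min was 1.67 (SE 0.51), and the SE was 0.17 in a fit that took the replicate as a block.

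*bek-1* was measured at low levels. Its values were 0.532 and 0.342 FPKM in the dark, 2.78 and 1.86 FPKM at 15 min, 1.26 and 0.796 FPKM at 60 min, 0.401 and 1.41 FPKM at 120 min, and 0.665 and 1.33 FPKM at 240 min. Up to 60 min the replicates ran in parallel, with ratios to the dark of 5.22 and 5.43 at 15 min and of 2.37 and 2.33 at 60 min. At 120 and 240 min they diverged, replicate 1 standing near its dark level and replicate 2 at 4.11 and 3.90 times its own. Its log2 fold change at 15 min was 1.20 (SE 0.34) and depends on the pseudocount, being 2.17 with 0.1 in place of 1.

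NCU00275 stayed nearer to its level at 15 min. It had 2.63 and 1.45 FPKM in the dark, 10.3 and 7.90 FPKM at 15 min, 7.08 and 4.91 FPKM at 60 min, 4.83 and 3.82 FPKM at 120 min, and 3.88 and 2.13 FPKM at 240 min. The order of the time points was the same in both replicates, and both values were above both dark values at 15, 60, and 120 min. The ratio of means to the dark was 4.46, 2.94, 2.12, and 1.47 at the 4 light times. Its log2 fold change at 15 min was 1.75 (SE 0.36).

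*asl-1* and NCU01856, both of the bZIP type by homology, had similar courses at different levels. *asl-1* had 15.7 and 11.8 FPKM in the dark, 35.3 and 26.0 FPKM at 15 min, 28.1 and 21.0 FPKM at 60 min, 26.7 and 18.5 FPKM at 120 min, and 18.6 and 11.4 FPKM at 240 min. NCU01856 had 84.8 and 62.3 FPKM in the dark, 175 and 124 FPKM at 15 min, 165 and 107 FPKM at 60 min, 123 and 86.7 FPKM at 120 min, and 106 and 50.5 FPKM at 240 min. Both genes were highest at 15 min in both replicates and declined at every later step, and at 240 min replicate 2 was below its dark level. Across the 10 samples NCU01856 was the third of the tested genes in likeness to *asl-1* (Pearson r of log2(FPKM + 1) of 0.97). The log2 fold changes at 15 min were 1.09 (SE 0.38) for *asl-1* and 1.01 (SE 0.46) for NCU01856. The study's text gives the neighbouring locus, NCU01346, for *asl-1*, whereas the RefSeq annotation has the synonym *atf-1* at NCU01345, whose values are given here. NCU01346 overlaps with it in assembly NC12 and was listed at 0 in all samples but replicate 2 at 240 min, and reads from the shared stretch cannot be assigned to 1 of the 2 with certainty.

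*rca-1* did not decline steadily. It had 10.0 and 9.22 FPKM in the dark, 23.04 and 17.8 FPKM at 15 min, 16.6 and 10.97 FPKM at 60 min, 19.8 and 13.1 FPKM at 120 min, and 16.8 and 5.92 FPKM at 240 min. It was the 1 gene of the 9 that was higher at 120 than at 60 min in both replicates. The log2 fold change against the dark was 1.00 (SE 0.48) at 15 min and 0.69 at 120 min.

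*rpn-4* kept its level up to 120 min and differed most between the replicates. It had 43.9 and 16.5 FPKM in the dark, 111 and 38.2 FPKM at 15 min, 93.7 and 43.5 FPKM at 60 min, 114 and 42.5 FPKM at 120 min, and 45.8 and 3.90 FPKM at 240 min. Relative to its own dark sample each replicate nonetheless gave a close ratio, 2.52 and 2.32 at 15 min, 2.13 and 2.64 at 60 min, and 2.60 and 2.58 at 120 min. Its highest value was at 120 min in replicate 1 and at 60 min in replicate 2. At 15 min the log2 fold change was 1.24 with an SE of 1.06, or 0.51 with the block.

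NCU01734 was at low levels in the dark and gave contrary values at 240 min. It had 1.56 and 1.96 FPKM in the dark, 10.62 and 13.7 FPKM at 15 min, 6.35 and 14.4 FPKM at 60 min, 4.36 and 4.94 FPKM at 120 min, and 10.9 and 0.819 FPKM at 240 min. The ratio to the dark was 6.83 and 6.98 at 15 min, second to *csp-1* among the 9, whereas at 240 min it was 6.99 in replicate 1 and 0.418 in replicate 2. At 15 min the log2 fold change was 2.25 (SE 0.76).

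The part of the rise at 15 min that was still present later separated the genes. At 60 min *csp-1* had kept 4.66% and 4.68% of its rise, and *csp-2* had kept 6.53% and 12.1%. *bek-1* had kept 32.5% and 29.96%. NCU00275 stood at 58.3% and 53.6%, and *asl-1* at 63.5% and 64.3%. NCU01856 had kept 88.8% and 72.4%. *rca-1* (50.3% and 20.5%), *rpn-4* (74.8% and 124%), and NCU01734 (52.8% and 106%) differed more between the replicates. The values of *csp-1* and *csp-2* were thus below those of the other 7 in both replicates. At 120 min *rpn-4* had 105% and 120% of its rise at 15 min, *asl-1* 56.3% and 47.0%, NCU01856 42.8% and 39.5%, and NCU00275 28.8% and 36.8%. These shares use the same 15 min samples that the genes were chosen on and are a description.

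**Figure D2:**
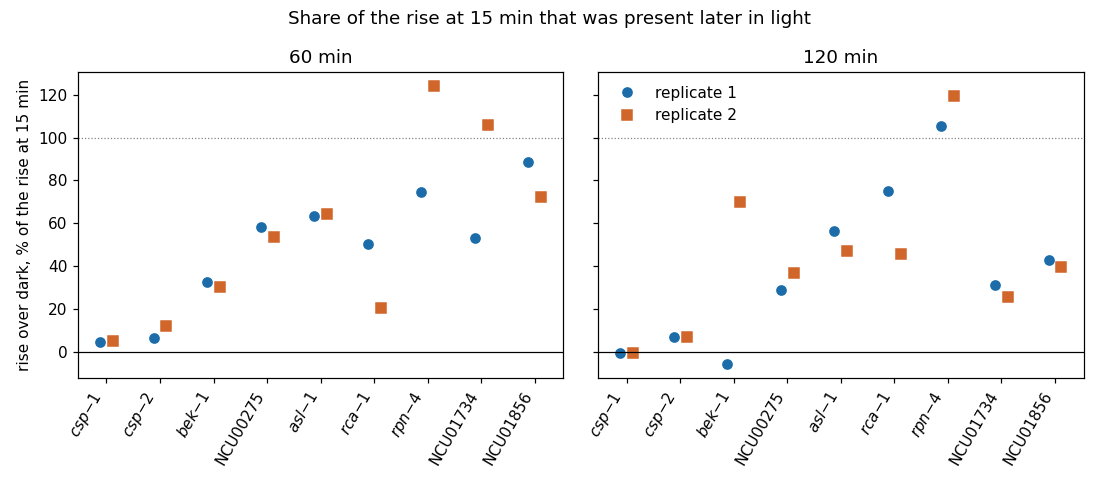
Level over the dark at 60 min (left) and 120 min (right) of light, in % of the rise at 15 min in the same replicate, for the 9 genes, with circles for replicate 1 and squares for replicate 2. The solid line marks the dark level and the dotted line the level at 15 min, and *csp-1* lies near the dark line in both panels while *rpn-4* is at 105% and 120% at 120 min.

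Whether levels changed from one light time point to the next was tested with limma over all genes. These steps are not the contrast by which the genes were chosen, although they share the light samples with it. Choosing genes on a rise in light favours a later fall. Counts of the 9 genes set beside the share of all genes are therefore a description. From 15 to 60 min, 7 of the 9 genes were lower in both replicates, the exceptions being *rpn-4* and NCU01734. The share of all tested genes was not taken for this measure, so nothing is read from the count. Both 60 min values were below both 15 min values for 5 genes, *csp-1*, *csp-2*, *bek-1*, NCU00275, and *rca-1*, compared with 24.2% of the genes tested. The log2 fold change was −2.67 (SE 0.33, adjusted p = 0.286) for *csp-1* and −1.41 (SE 0.51, adjusted p = 0.569) for *csp-2*. No gene of the 9 and no gene of the genome (0% lower) passed the threshold of 0.2 in this limma fit, in which 2 of the 9 and 707 of all tested genes had an unadjusted p under 0.05.

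Once the replicate was taken as a block, the fall from 15 to 60 min passed for *csp-1* (adjusted p = 0.0456), *csp-2* (adjusted p = 0.0524), and NCU00275 (log2 fold change −0.53, adjusted p = 0.144), which makes 3 of 9 beside 12.2% of the genes tested. Without the 240 min samples it passed for *csp-1* alone (adjusted p = 0.00877, beside 5.82% of genes), and *csp-2* stood at an adjusted p of 0.215. Without the 240 min sample of replicate 1, *csp-1* (adjusted p = 0.0026) and *csp-2* (adjusted p = 0.138) passed beside 10.2% of genes, and without that of replicate 2 *csp-1* passed (adjusted p = 0.01375). The fall of *csp-1* also passed with no filter, with quantile normalization, and with median scaling. The other genes had log2 fold changes from −0.71 for *bek-1* to −0.03 for *rpn-4*, and those of *rpn-4* and NCU01856 (−0.15) turned to 0.14 and 0.015 with median scaling.

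From 60 to 120 min 0 of the 9 genes passed in limma with or without the block, with 0 unadjusted p-values under 0.05 in the fit without it. The largest change was that of NCU01734 at −0.91 (SE 0.76, adjusted p = 0.883), which passed (adjusted p = 0.189) when the 240 min sample of replicate 1 was left out. *csp-1* stood at −0.50 and *rca-1* at 0.24.

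From 120 to 240 min, 6 of the 9 genes were lower in both replicates, a measure again not taken over all genes. Both 240 min values were below both 120 min values for 1 of the 9, beside 1166 of the 7688 genes tested. *rpn-4* had a log2 fold change of −2.22 (SE 1.06, adjusted p = 0.699), *rca-1* of −0.63, *asl-1* of −0.58, and *csp-1* of −0.53. In limma without the block 0 of the 9 genes passed, and 0 had an unadjusted p under 0.05. With the block *rpn-4* (adjusted p = 0.0981), *asl-1* (adjusted p = 0.143), and NCU00275 (−0.44, adjusted p = 0.197) fell, which is 3 of 9 beside 11.3% of genes. Without the 240 min sample of replicate 1, the log2 fold change of *rpn-4* was −3.85. The sample left at 240 min is in that fit assumed to vary like the other time points. The fit had no block, so replicate 2 alone at 240 min was set against both replicates at 120 min. The difference between the replicates, a log2 ratio of 1.41 for *rpn-4* at 120 min, therefore enters this value.

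**Figure D3:**
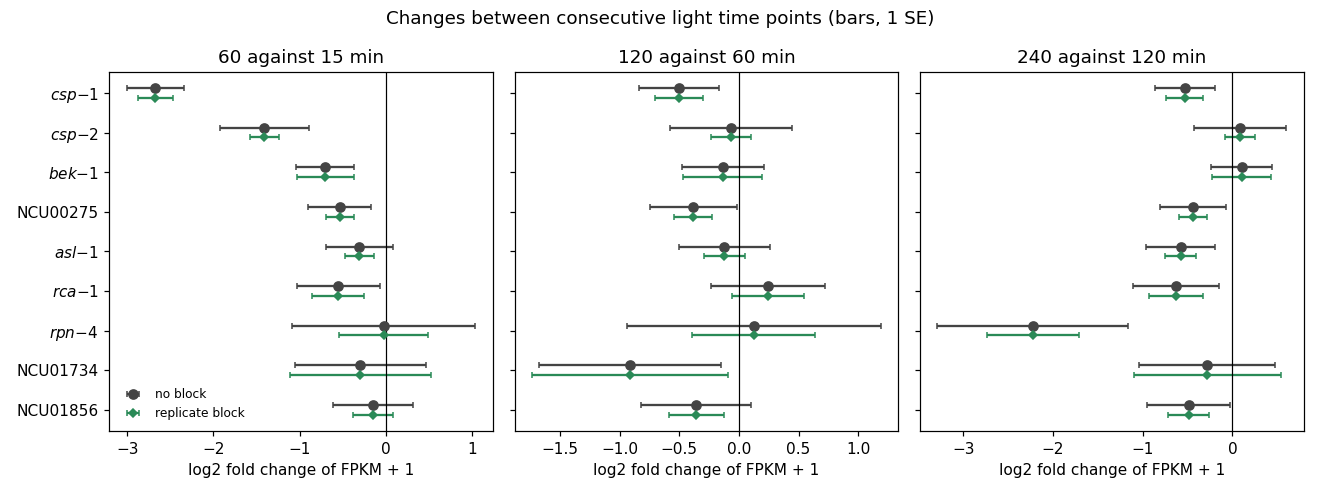
Log2 fold changes of FPKM + 1 between consecutive light time points for the 9 genes (horizontal axes, which differ in range between the 3 panels), with bars of 1 SE from the limma fit without a block (circles) and with the block for replicates (diamonds). The fall of *csp-1* from 15 to 60 min, −2.67 with an SE of 0.33, is the largest of these steps, and the block narrows the bars for *csp-2* from 0.51 to 0.17.

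The replicates differed in a gene-specific way. Over the dark, 15, 60, and 120 min samples the log2 ratio of replicate 1 to replicate 2 had a median of 0.26 to 0.28 over all tested genes. *rpn-4* had ratios of 1.36, 1.51, 1.09, and 1.41 at these times, above 98.2% to 99.5% of the genes, and *csp-2* had ratios of 0.84, 0.89, 0.71, and 0.85, above 86.2% to 91.5%. *csp-1*, *asl-1*, and NCU01856 were nearer to the median, with ratios from 0.24 to 0.62. At 240 min 44.9% of the tested genes differed at least 2-fold between the replicates, against 5.398% to 7.93% at the other times. The ratio was then 3.26 for *rpn-4*, 2.71 for NCU01734, 1.36 for *rca-1*, and 1.06 for NCU01856, whereas it was −0.04 for *csp-1*. The isolation of poly(A) RNA and the sequencing depth also differed between the replicates and cannot be told apart from the replicate number.

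**Figure D4:**
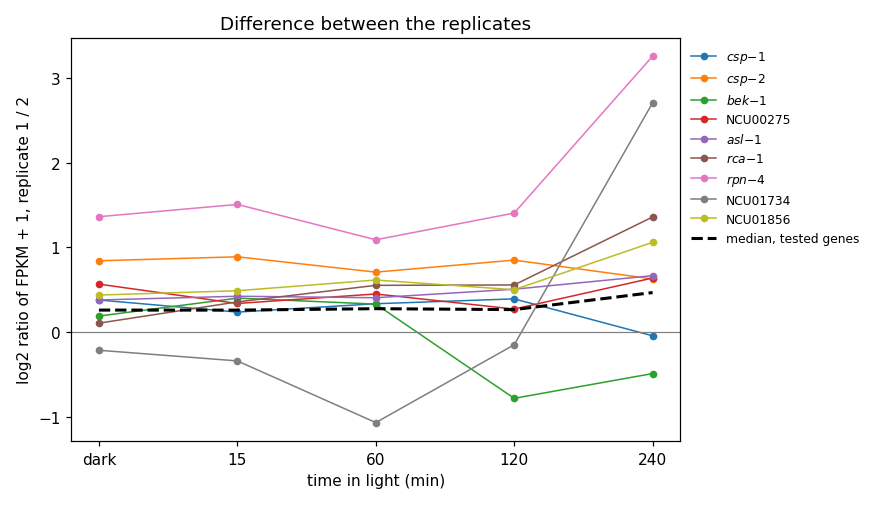
Log2 ratio of FPKM + 1 between replicate 1 and replicate 2 (vertical axis) at each time point for the 9 genes (coloured lines) and the median over all tested genes (dashed line). *rpn-4* lies between 1.09 and 1.51 up to 120 min and at 3.26 at 240 min, and *csp-1* stays between −0.04 and 0.39.

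Markers of conidiation also rose in light, but on a later course than most of the 9 genes. The paper describes *con-6* and *con-10* as light-responsive, so their rise need not reflect conidiation. The summed level of *con-6*, *con-8*, *con-10*, and *eas* was 120 and 95.9 FPKM in the dark, 898 and 1270 FPKM at 15 min, 4416 and 5070 FPKM at 60 min, 2902 and 2148 FPKM at 120 min, and 568 and 111 FPKM at 240 min. Of the 4 markers, 3 were called as raised at 15, 60, and 120 min and 0 at 240 min, and none of the 4 was listed at 0 in a sample. The marker sum was highest at 60 min, later than the 15 min at which 7 of the 9 genes were highest in both replicates, and its part in the results was not tested. Actin and tubulin mRNA were abundant in every sample, at 183 FPKM or more, and *matA-1* was between 0.358 and 3.88 FPKM. At 120 min their log2 fold changes against the dark were −0.64, −1.18, and −1.04 in this order. None of the 3 passed in limma without the block. With it 2 were lowered at 1 or more light times, beside 33.3% of all tested genes. Without both 240 min samples 3 were lowered, beside 1929 of 7526 genes. Of the 2 markers of sexual structures, *pre-1* was under 1 FPKM throughout, and *ccg-4* was abundant in every sample, with 149 and 354 FPKM in the dark, 330 and 622 FPKM at 60 min, and 157 and 122 FPKM at 240 min. Its changes against the dark did not pass in limma with or without the block.

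The other WCC target genes of the study's list, 23 loci, gave a setting for the 4 that are among the 9 genes. Of the 23, 5 were raised and 1 was lowered at 1 or more light time points in limma at an adjusted p of 0.2, beside 3.49% and 5.4% of all tested genes. With the block 13 were raised and 9 lowered, beside 21.6% and 33.3%, a gene that passed in both directions at different times being counted under each. Their median log2 fold change was 0.52, 0.26, 0.18, and −0.16 at 15, 60, 120, and 240 min, against −0.05, −0.09, −0.07, and −0.14 over all tested genes. The total of 6 was lower without any single dark, 15, 60, or 120 min sample and higher without either 240 min sample. Such fits leave 1 sample at a time point. With both 240 min samples left out, 10 of the 23 were raised and 3 lowered, beside 1542 and 1929 of 7526 tested genes.

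*abc-4*, named as a multidrug transporter, is on this list although it encodes no transcription factor. It had 0.556 and 0.267 FPKM in the dark and 15.6 and 5.76 FPKM at 15 min, a log2 fold change of 2.91 (SE 0.45, adjusted p = 0.0504 in limma), and 2.77 and 1.06 FPKM at 60 min. *sub-1*, a regulator of later light-induced genes, went from 9.62 and 9.75 FPKM to 40.3 and 39.1 FPKM at 15 min (adjusted p = 0.0815) and to 12.4 and 10.64 FPKM at 60 min, a pulse like those of *csp-1* and *csp-2*. *sah-1*, a C2H2 factor, was at 48.5 and 41.7 FPKM at 15 min and 53.1 and 42.5 FPKM at 60 min from 10.9 and 10.63 FPKM in the dark (adjusted p = 0.0696 at 60 min). *vos-1*, of the velvet family, was higher at 60 min (24.0 and 20.0 FPKM) than at 15 min (12.3 and 11.3 FPKM). The remaining calls were *sre*, raised at 15 min (adjusted p = 0.120), and NCU07846, lowered at 60 min (adjusted p = 0.0874), both named after their values were seen.

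**Figure D5:**
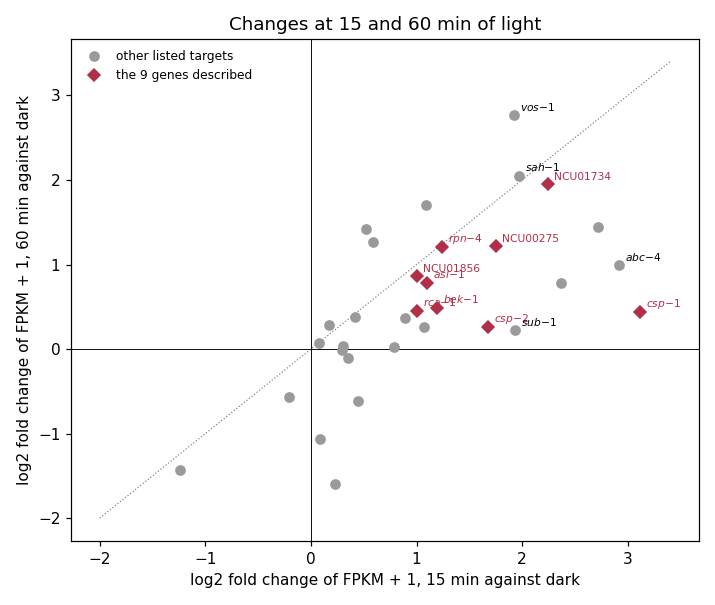
Log2 fold change of FPKM + 1 against the dark at 15 min (horizontal axis) and 60 min (vertical axis) for the 9 genes (diamonds) and the other 23 loci on the list of WCC targets (circles), with equal change marked by the dotted line. *csp-1* at 3.11 and 0.44 and *csp-2* at 1.67 and 0.26 lie far below the line, and *rpn-4* at 1.24 and 1.21 lies on it.

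Of the light input genes, *vvd* rose (log2 fold change 6.57, adjusted p = 0.0368 at 15 min in limma). *wc-1*, *frq*, and *wc-2* did not pass without the block, and with it *wc-1* (2.72, adjusted p = 0.00614 at 15 min) and *frq* (2.71, adjusted p = 0.0315) rose and *wc-2* (−0.81, adjusted p = 0.0392 at 60 min) fell. With the block 21.6% of all tested genes were raised and 33.3% lowered. *vvd* lost its call without either dark sample, a fit with 1 dark sample left. Without both 240 min samples 3 of the 4 genes were raised and 1 lowered, beside 1542 and 1929 of 7526 tested genes.

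For the factors with a known set of targets, the levels of those targets were compared with the dark. *ccg-1* and *cat-1*, a catalase gene, are genes that depend on *asl-1* according to the literature cited in the study. The study names both within a cluster drawn from its light-regulated genes in these same samples. Their rise against the dark is therefore a description, and the p-values below are no independent support. *ccg-1* went from 2357 and 2970 FPKM in the dark to 3692 and 4353 FPKM at 15 min and 22070 and 19299 FPKM at 60 min, a rise of 2.96 (SE 0.37, adjusted p = 0.0273 in limma). *cat-1* was at 69.3 and 44.3 FPKM in the dark, 165 and 101 FPKM at 15 min, and 493 and 302 FPKM at 60 min (2.78, SE 0.82, adjusted p = 0.214, or 0.0382 with the block). Both were higher at 60 than at 15 min, whereas *asl-1* itself was higher at 15 min. *ccg-1* lost its call without either dark sample, a fit with 1 dark sample left. Both genes were raised with the block, beside 21.6% of all tested genes. Both were also raised without both 240 min samples, beside 1542 of 7526 tested genes.

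In *S. cerevisiae*, Rpn4 acts on genes of the proteasome, the complex that degrades proteins. In these data, 0 of 28 proteasome genes passed in either direction at any light time in limma, with 2 at an unadjusted p under 0.05 at 1 or more times. With the block 0 were raised and 9 were lowered, beside 33.3% of all genes. The 4 light times had median log2 fold changes of −0.28, −0.11, −0.19, and −0.43 in order. *pca-1*, an alpha subunit of the core, had 115 and 141 FPKM in the dark and 101.8 and 99.6 FPKM at 15 min. At 240 min, the time of its smallest p, it had 85.7 and 36.0 FPKM. The log2 fold change was then −1.18 (SE 0.42, adjusted p = 0.301 in limma). The mRNA of *rpn-4* does not show the level of its protein, and its action on these genes was not tested. Without the 240 min sample of replicate 1, 0 were raised and 12 lowered, beside 28.5% and 44.6% of all genes, and without that of replicate 2, 0 were raised and 6 lowered, beside 25.8% and 28.9%.

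Genes of the endoplasmic reticulum, a compartment served by Hac1 targets in *S. cerevisiae*, were also compared. Of the 9 found by name, 6 encode subunits of the oligosaccharyl transferase, which glycosylates proteins, 2 are named as disulfide isomerases, and 1 is *sec61-1* of the translocation channel. In limma 0 of 9 passed, with 1 at an unadjusted p under 0.05, and with the block 1 was raised and 4 were lowered, beside 21.6% and 33.3% of all genes. A gene called both ways at different times counts under each. Without both 240 min samples 2 were raised and 4 lowered, beside 1542 and 1929 of 7526 tested genes. The median log2 fold change was 0.24, −0.31, −0.48, and −0.34 at 15, 60, 120, and 240 min. Over all tested genes it was −0.05, −0.09, −0.07, and −0.14. NCU03995, an oligosaccharyl transferase subunit, had 63.6 and 69.8 FPKM in the dark, 88.5 and 101 FPKM at 15 min, 97.7 and 106 FPKM at 60 min, and 45.3 and 30.1 FPKM at 240 min. The FPKM of a gene does not show how much of its mRNA is spliced, the step by which Hac1 is controlled in *S. cerevisiae*.

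A further list held genes whose names contain terms of transcriptional regulation or of a zinc finger type, which also takes in a few that may be no such factors. Of its 35 tested genes, 10 are on the WCC list as well, and 1 was called against the dark, *sah-1*, which is among these 10. Their median log2 fold change was 0.09, −0.18, 0.17, and −0.18 at 15, 60, 120, and 240 min. With the block 9 were raised and 14 were lowered, beside the 21.6% and 33.3% of all genes given above. The call was lost without either sample of the dark, 60 min, or 120 min, and without the 240 min sample of replicate 1, 7 genes were raised and 16 lowered, and without that of replicate 2, 5 and 9, at the shares of all genes given for the proteasome genes.

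The genes whose levels ran most like those of the 9 were found by Pearson r of log2(FPKM + 1) over the 10 samples, which share libraries and the replicate difference, so that the values are a description. For NCU00275 the first was *phr*, the gene of DNA photolyase, with an r of 0.98, and the third was *vvd* with 0.97. For *csp-1* the first were *gsl-11* (0.97) and *gt8-1* (0.97), and for *csp-2* *vad-3* (0.97). *asl-1* was most like *csb* (0.98), *rca-1* most like NCU07425 (0.97), and NCU01734 most like NCU09062 (0.97). *rpn-4* had 317 genes with an r above 0.9, led by NCU04406 at 0.995, and NCU01856 had 99, led by NCU08948 (0.99), whereas *csp-1* had 17, *csp-2* had 16, and *bek-1* had 1 (*mic-21*, 0.90).

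The genes next to the 9 on the chromosomes, in the order of assembly NC12, mostly did not reach a 2-fold rise at 15 min. Of 18 neighbours 13 were tested, and 2 had a ratio of mean FPKM + 1 at 15 min to the dark of 2 or more, as had 3.84% of all tested genes. One is *mip-1*, the neighbour of NCU00275, with 2.68 and 1.68 FPKM in the dark and 9.96 and 6.30 FPKM at 15 min. Its ratio of 2.87 was present in both replicates, and the 2 genes do not overlap in NC12. The other, NCU00099 beside *bek-1*, was listed at 0 in both dark samples and in replicate 1 at 15 min and at 7.17 FPKM in replicate 2. *mus-21*, on the other side of NCU00275 and overlapping with it, was at 4.83 and 2.12 FPKM in the dark and 4.78 and 2.01 FPKM at 15 min. Below the 2-fold cut, both neighbours of NCU01734 were higher at 15 min in both replicates, NCU01735 with a ratio of 1.58 and *ve-1* with 1.59. The neighbours named here were chosen after their values were seen.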

How the data were processed

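The data are RNA-seq of 10 mycelial samples, 5 time points with 2 replicates each. Per the processing notes of the submitters, base calls came from CASAVA 1.8.2 and reads were aligned with TopHat2 2.0.5, per the study's methods to *N. crassa* genome assembly 10. The authors deposited FPKM from Cuffdiff, fragments scaled to transcript length and mapped reads with corrections for fragment bias and for reads mapping to several places, for 9728 genes in each sample. FPKM keeps no read numbers, so depth and counting error are unknown from the tables. The study's supplementary summary of reads lists fewer reads for the samples of replicate 2. The 2 replicates of a time point are separate cultures, and differences are set against their spread.

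log2(FPKM + 1) of the 7688 genes with a mean FPKM above 1 at 1 or more time points was fitted with limma 3.58.1 in R 4.3.3. The model had 1 mean per time point and a variance trend, with 5 residual and 3.50 prior degrees of freedom. Two-sided p-values were adjusted by Benjamini and Hochberg over genes and the comparisons of a family, which are the 3 steps between light time points or the 4 light times against dark. The threshold was an adjusted p of 0.2, as in the study. Fits were tested on simulated data.

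The 9 genes and the gene lists were chosen with earlier results of these data known. Because the 9 genes were selected on their rise in light, light against dark is given for them with no test. Named beside them are, for each, the 3 tested genes with the highest Pearson r, and of each list at most 4 genes with the smallest p. Lists taken by gene name draw on 3824 loci with a name in the supplementary tables used here. Gene symbols and the order of genes came from RefSeq (assembly NC12), which held 9218 of the 9728 loci. Promoter motifs and protein patterns were not analysed here.

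An alternative fit had a block for the replicate number. The isolation of poly(A) RNA differed between the replicates. Deviations of replicate 1 from the time point means correlated between all 10 pairs of time points (r from 0.33 to 0.84 across genes, and at least 0.76 without 240 min), so the numbers were taken to pair the samples. Other alternatives were a pseudocount of 0.1, no filter, a filter at a mean FPKM above 2, quantile normalization, median scaling, leaving out the 240 min samples or any library, and a threshold of 0.05. Python 3.11.15 with pandas 2.3.3 was used for values by sample.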

Additional observations from a re-analysis of the deposited data

How the results depend on the processing

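With the replicate block, 3 of the 9 genes passed from 15 to 60 min and 3 from 120 to 240 min, against 0 in the fit without it. All of these were lower, as were 12.2% and 11.3% of all tested genes with the block. From 15 to 60 min 1 gene passed with no filter, with quantile normalization, with median scaling, and without the 240 min samples. In the last of these fits 5.82% of all tested genes were lower, and for the others the share was not taken. Leaving out single libraries also changed the number that passed, in fits with 1 sample left at a time point. The cause was not tested.

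The counts of genes called against the dark at any light time point were 6 of the WCC targets, 1 of the light input genes, 1 of the genes that depend on *asl-1*, 0 proteasome genes, 0 genes of the endoplasmic reticulum, and 1 of the list of other regulators by name. In this order they were 20, 4, 2, 9, 4, and 22 with the replicate block and 13, 4, 2, 4, 6, and 12 without the 240 min samples. Of all tested genes, 21.6% were raised and 33.3% lowered with the block. Without the 240 min samples 1542 of 7526 tested genes were raised and 1929 lowered. With median scaling they were 12 of the WCC targets, 2 light input genes, 2 that depend on *asl-1*, and 5 other regulators. Quantile normalization gave 2 light input genes, 1 proteasome gene, and 2 other regulators, no filter gave 4 other regulators, and a threshold of 0.05 gave 0 WCC targets and 0 other regulators. Without single libraries the ranges were 0 to 17, 0 to 4, 0 to 2, 0 to 12, 0 to 6, and 0 to 21.

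Of 477 single values between light time points under the alternatives, 453 had the same sign. The other sign appeared under median scaling from 15 to 60 min for *rpn-4* (0.14) and NCU01856 (0.015). Leaving out libraries gave the other sign in the remaining cases. The log2 fold changes from 15 to 60 min then ranged from −0.78 to 0.73 for *rpn-4*, from −0.83 to 0.23 for NCU01734, and from −0.46 to 0.16 for NCU01856. From 60 to 120 min the ranges were −0.49 to 0.36 for *csp-2*, −0.52 to 0.26 for *bek-1*, −0.38 to 0.13 for *asl-1*, −0.038 to 0.52 for *rca-1*, and −0.58 to 0.83 for *rpn-4*. From 120 to 240 min they were −0.34 to 0.51 for *csp-2*, −0.29 to 0.49 for *bek-1*, −1.31 to 0.052 for *rca-1*, −1.63 to 1.07 for NCU01734, and −1.02 to 0.042 for NCU01856. None of 153 values of 15 min against dark changed sign. Those of *bek-1*, NCU00275, and NCU01734 moved to 2.17, 2.15, and 2.72 with a pseudocount of 0.1. Read numbers behind the low values, such as those of *bek-1*, are unknown.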
